A study of Mus musculus with 2 samples.

Results

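Endothelial cells without detected Plvap transcripts were examined in the mouse choroid plexus. They numbered 101 barcodes (56 in the library of 3-month-old and 45 in the library of 24-month-old mice) among 1033 endothelial barcodes and 19584 deposited barcodes. A barcode is the droplet tag that stands for a cell, and a UMI (unique molecular identifier) stands for 1 captured transcript copy. Endothelial barcodes had at least 500 genes, at most 25% mitochondrial UMIs and under 10% of UMIs from Ttr, the main transcript of the plexus epithelium. They also had 8 or more UMIs summed over Pecam1, Cdh5, Kdr, Flt1, Emcn, Egfl7 and Esam and fewer than 8 over 8 mural genes (Rgs5, Kcnj8, Abcc9, Higd1b, Ndufa4l2, Pdgfrb, Notch3 and Vtn). Members had 0 UMIs of Plvap, and the other 932 endothelial barcodes (516 and 416) had 1 or more. The members were thus chosen by measured values of these 16 genes and of the filters, and all comparisons of members with Plvap-positive barcodes are descriptions without a test.

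Capillaries of the choroid plexus stroma are fenestrated: their thin walls carry pores closed by diaphragms, and PLVAP is the protein of which these diaphragms are built. Endothelium of the brain parenchyma lacks fenestrae and Plvap, is sealed by tight junctions rich in claudin-5 (Cldn5), and carries transporters such as Slc2a1, Slco1a4, Slco1c1 and Abcb1a. Arteries, arterioles and veins that enter or leave the plexus also have continuous walls, with arterial genes such as Gja4, Sema3g, Mgp and Gkn3 on one side and venous genes such as Vwf, Ackr1 and Slc38a5 on the other.

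The study profiled female C57BL/6 mice at 3 and 24 months of age by droplet single-cell RNA sequencing. The plexuses of the lateral and 4th ventricles of 4 mice were pooled at each age before digestion, so each age is 1 library and no difference between ages has a replicate check. The libraries held 111403078 and 116777113 UMIs in 9154 and 10430 barcodes, with medians of 10823 and 10739 UMIs per barcode. Levels are CPM, the UMIs of a gene or list per 1000000 UMIs of the summed barcodes of a class, and every interval is an exact 95% interval that covers counting error only, not differences between cells or mice. The libraries shared 29 barcode sequences, 0 of them endothelial. In mm10 with GENCODE vM21, Plvap lies at chr8:71497765-71511752 on the minus strand and Cldn5 at chr16:18776847-18778262 on the plus strand, both protein-coding.

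Not all members had the transcripts of endothelial cells. Each barcode's UMIs were therefore summed over 22 general endothelial genes, none of them used in the selection (Tie1, Ptprb, Erg, Eng, Cldn5, Vwf and others), and over 10 fibroblast genes (Dcn, Lum, Col1a1, Apod and others). Of the members, 28 of 56 at 3 months and 37 of 45 at 24 months had more endothelial than fibroblast UMIs and are called endothelial-marked here. Among Plvap-positive barcodes these were 515 of 516 and 415 of 416. Taking Cldn5 and Vwf out of the endothelial list changed the marking of 0 members.

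The other 28 and 8 members had more fibroblast than general endothelial UMIs. Their fibroblast UMIs had a median of 38 (4 to 77) at 3 months and 93 (21 to 234) at 24 months, against a median of 3 (0 to 9) and 5.5 (0 to 10) for the 22 endothelial genes. Dcn, which encodes the collagen-binding proteoglycan decorin, had a median of 14 UMIs in both libraries. One unmarked member stood apart, a 3-month barcode of 16451 UMIs and 9.60% Ttr with 4 fibroblast, 3 general endothelial and 0 Dcn UMIs. Emcn, the sialomucin endomucin, supplied 84.7% and 82.9% of the UMIs by which they reached the endothelial threshold, against 10.8% and 10.2% in marked members. Emcn was not restricted to endothelium in these libraries: 84.0% of 1075 and 73.1% of 1545 fibroblast barcodes had an Emcn UMI (514 and 466 CPM; median depth 3929 and 3161 UMIs), while 4.10% and 2.82% of the epithelial barcodes did (median depth 17689 and 15257). Cldn5 was 0 in all 28 at 3 months and present in 2 of 8 at 24 months. Flt1 or Kdr, the VEGF receptors, appeared in 4 of 28 and 1 of 8 of them, against 28 of 28 and 36 of 37 marked members. Pecam1, Cdh5, Cldn5 and Vwf were all 0 in 16 of 28 and 1 of 8.

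**Figure D1:**
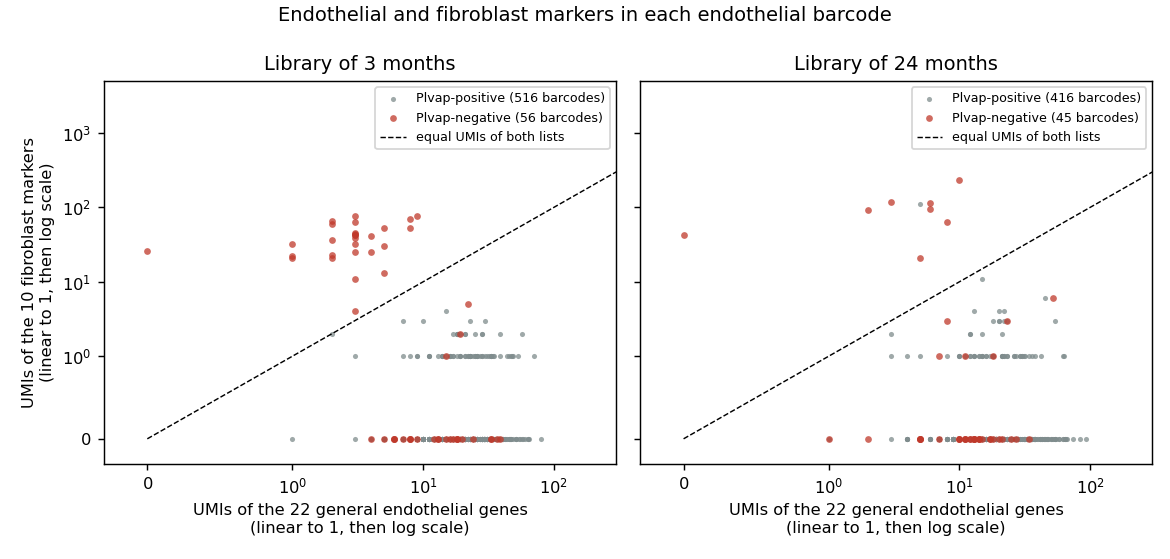
UMIs of the 22 general endothelial genes (horizontal) and of the 10 fibroblast genes (vertical) in each endothelial barcode, one panel per library, on scales linear to 1 and then logarithmic. The Plvap-negative barcodes fall into a cloud with few fibroblast UMIs and a cloud with a median of 38 (3 months) or 93 (24 months) of them, while Plvap-positive barcodes lie almost wholly in the first.

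The label of endothelial cells was not met by most of these unmarked members. In the marked ones, as a description only since these genes took part in the selection, Flt1 had UMIs in 27 of 28 and 35 of 37 barcodes, Pecam1 in 21 and 26, and Cdh5 in 17 and 22. Of the genes that only the marking used, Cldn5 was found in 8 of 28 and 11 of 37, and Vwf, the clotting factor stored in endothelial granules, in 2 of 28 and 9 of 37. Pecam1, Cdh5, Cldn5 and Vwf were together 0 in 2 of 28 and 2 of 37. The summed level of the 22 endothelial genes by which barcodes were marked was 7863 against 9005 CPM at 3 months and 8985 against 8557 CPM at 24 months. Members just inside the threshold, with 8 or 9 UMIs of the selection genes, numbered 28 and 16, of which 6 and 11 were marked. Just outside it, 67 and 47 barcodes without Plvap had 6 or 7 such UMIs, of which 8 and 2 were marked.

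Marked members were shallow, and the share of barcodes without Plvap moved with depth. Their median was 1725 UMIs (888 to 5289) and 1280 UMIs (771 to 5807), against 2170 and 2135 in marked Plvap-positive barcodes. Of all endothelial barcodes 9.79% (interval 7.48 to 12.5) and 9.76% (7.21 to 12.8) had 0 Plvap UMIs, and of the marked ones 5.16% (3.45 to 7.37) and 8.19% (5.83 to 11.1). Below 1000 UMIs the share was 44.4% (4 of 9) and 42.9% (9 of 21) of marked barcodes. Between 2000 and 4000 UMIs it was 2.92% and 3.39%. A member, above all one below 1000 UMIs, cannot be told apart from a cell whose Plvap transcripts were not captured. Among all endothelial barcodes of 4000 to 8000 UMIs at 3 months the share was 43.1% (25 of 58), and among marked ones 5.71% (2 of 35).

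**Figure D2:**
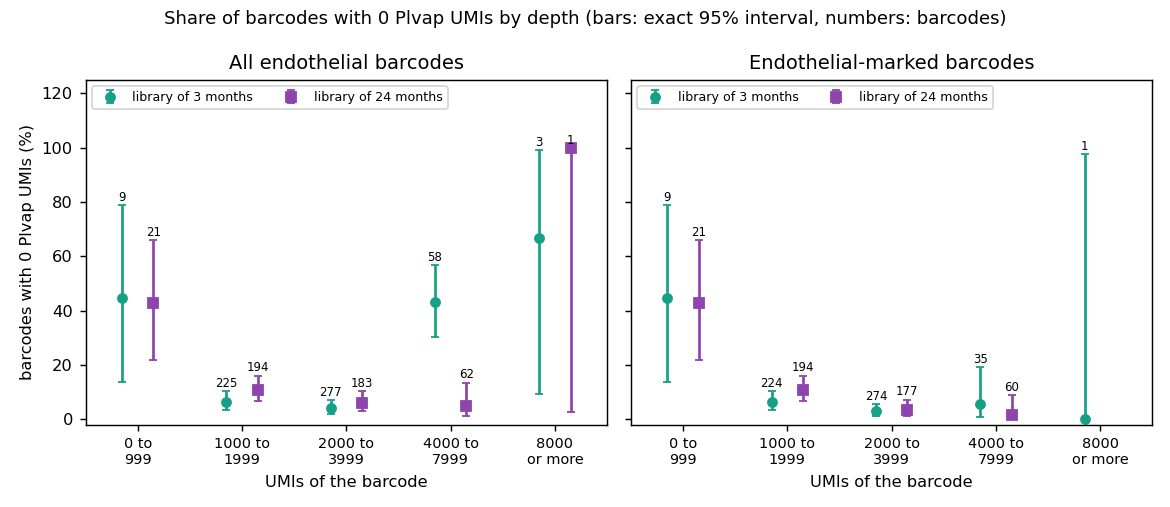
Percent of endothelial barcodes with 0 Plvap UMIs in bins of depth (UMIs per barcode), for all endothelial barcodes and for endothelial-marked ones, with exact 95% intervals and the number of barcodes above each point. The high share at 4000 to 8000 UMIs at 3 months (43.1%) appears for all barcodes and not for marked ones (5.71%).

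Taken over all 101 members, the fibroblast markers stood above their level in Plvap-positive barcodes. A gene was called higher or lower when its summed level differed at least 1.5-fold in the same direction in both libraries with intervals that left out a ratio of 1. Of 5855 measured genes, 283 (4.83%) were higher and 283 (4.83%) lower in members. The strongest were Cpxm1 (83.4-fold at 3 months and 83.9-fold at 24 months), Itga8 (155 and 55.9), Lum, a proteoglycan of collagen fibrils (134 and 48.8), and Apod, a lipid carrier (57.4 and 43.8). Also among the 12 highest were Cemip, Scara5, Spp1, Dpep1, Col18a1, Hpgd, Serping1 and Mrap. All 6 measured fibroblast markers were higher, Dcn by 104-fold and 39.7-fold. In marked members Lum was at 17.5 and 0 CPM, against 1332 and 1355 CPM in the unmarked ones. The 12 lowest genes included Cyp1a1, Ednrb, Cyp26b1, Gpihbp1, Btnl9 and Meox1, together with Enpp6, Zfpm1, Ramp3, Exoc3l2 and Ada.

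The arterial and venous lists over all members drew on marked and unmarked barcodes in different parts. The arterial list was 16041 against 2618 CPM (6.13-fold) at 3 months and 13911 against 2610 CPM (5.33-fold) at 24 months, and its largest contributor Mgp was at 14369 and 12382 CPM in fibroblast barcodes. Venous genes summed to 3722 against 1871 CPM and 6198 against 1721 CPM. Marked members held 518 of the 3457 arterial and 84 of the 802 venous UMIs at 3 months. At 24 months they held 455 of 1304 and 433 of 581, so most venous UMIs there came from marked members. The fibroblast list over all members was 5095 against 79.1 CPM and 8438 against 206 CPM. The results that follow keep to the marked barcodes unless stated, a choice made after these values were seen. In marked members the fibroblast list was at 140 CPM (8 UMIs) and 257 CPM (15 UMIs), against 77.6 and 99.5 CPM in Plvap-positive barcodes, and Dcn had 2 and 0 UMIs.

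Marked members had more Cldn5 and more arterial transcripts than Plvap-positive barcodes. Of 5454 measured genes, 58 (1.06%) were higher and 66 (1.21%) lower, and the median log2 difference of all measured genes was -0.11 and -0.10. Cldn5 had 23 UMIs in 28 members at 3 months, 403 CPM against 13.9 CPM, a ratio of 29.0 (14.8 to 57.9). At 24 months it had 36 UMIs in 37 members, 617 against 18.2 CPM, a ratio of 34.0 (19.0 to 62.7). Cldn5 was also rare in the fibroblast, macrophage, mural and epithelial barcodes, at no more than 23.4 CPM. With each barcode thinned to 900 UMIs (1 and 2 marked members left out as shallower), 25.9% and 20% of marked members held Cldn5 against 0.390% and 0.985% of Plvap-positive barcodes. The same share was 1.30% and 1.75% in fibroblasts and 0 in epithelial barcodes.

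The 12 genes highest by the naming rule were, after Cldn5, Fn1, Slco1a4, Stmn2, Mgp, Mecom, Mt2, Fbln2, Vwf, Ifitm1, Lap3 and Elovl7. Fn1, the matrix protein fibronectin, was 12.2-fold and 22.4-fold higher, with UMIs in 10 of 28 and 11 of 37 members. Mecom, a transcription factor, was 6.53-fold and 6.72-fold higher and was spread over 6 and 10 members. The values of Mt2, a metallothionein, rested on few cells, with 9 of its 11 and 9 of its 16 UMIs in 1 barcode of each library. All 9 Ifitm1 UMIs at 24 months came from 1 barcode. Elovl7, a fatty acid elongase, was 5.72-fold and 4.89-fold higher.

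Arterial genes were higher in marked members. Of 15 measured genes (of 25 listed) 6 were called higher and 0 lower, beside 1.06% and 1.21% of all measured genes. The 6 were Gja4, Sema3g, Mgp, Fbln2, Edn1 and Stmn2. The list summed to 9071 CPM in marked members against 2619 CPM in Plvap-positive barcodes at 3 months (3.46-fold, 3.15 to 3.80) and to 7802 against 2532 CPM at 24 months (3.08-fold, 2.78 to 3.40). Its median log2 difference over measured genes was 1.37 and 0.68, beside -0.11 and -0.10 for all genes. Mgp, the matrix Gla protein that inhibits calcification of vessel walls, was at 3695 against 558 CPM and 3824 against 457 CPM. Without Mgp the list was at 5376 and 3978 CPM in marked members, and at 2067 and 2047 CPM in barcodes with 3 or more Plvap UMIs.

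Single arterial genes were present in some members only. Sema3g, a secreted semaphorin of arterial endothelium, had 15 UMIs in 9 of 28 members at 3 months (10.1-fold, 5.06 to 19.1) and 7 UMIs in 5 of 37 at 24 months (3.69-fold, 1.38 to 8.45). It had 0 UMIs in fibroblast and macrophage barcodes of both libraries. Gja4, the gap junction protein connexin 37, was 5.18-fold and 4.78-fold higher from 7 and 4 UMIs, and was at 714 and 777 CPM in mural barcodes. Edn1, the vasoconstrictor endothelin 1, was 4.71-fold and 5.21-fold higher. Stmn2 had 18 UMIs in 10 members and 12 in 6, with ratios of 25.7 and 7.68. Fbln2, a fibulin of elastic matrix, had 45 UMIs in 11 members and 17 in 11. Efnb2 and Dll4, the arterial ephrin and Notch ligands, were not called: Efnb2 had ratios of 1.23 and 0.394, and Dll4 of 1.43 and 0.743.

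Some arterial genes were too sparse to be measured over all classes. Gkn3, a gastrokine known from arterial brain endothelium, had 8 UMIs in 2 members at 3 months and 7 UMIs in 2 members at 24 months. Among marked Plvap-positive barcodes it had 0 UMIs in both libraries, which allows up to 2.45 and 2.87 CPM against 140 and 120 CPM in members. Fbln5, an elastic fibre protein, had 16 UMIs in 5 members and 18 in 7 (68.6-fold and 46.1-fold higher), and Bmx 4 and 4 UMIs. Gja5 had 0 UMIs in members and in Plvap-positive barcodes.

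Smooth muscle transcripts were also higher in marked members at 3 months, mostly in 1 barcode. The smooth muscle list summed to 736 CPM (42 UMIs) in marked members against 63.7 CPM in Plvap-positive barcodes at 3 months, and to 68.6 (4 UMIs) against 51.7 CPM at 24 months. Of those 42 UMIs, 25 came from 1 barcode of 5289 UMIs that also held 64 Mgp UMIs. At 24 months Acta2, Tagln, Myh11, Myl9, Cnn1 and Des were at 0 in marked members, and the arterial list was 3.08-fold higher there. Without the deepest marked member of each library, which is that barcode at 3 months, the arterial ratios were 3.15 and 3.35.

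The summed arterial level did not fall gradually with the Plvap count. Barcodes with 1 or 2 Plvap UMIs had the arterial list without Mgp at 2026 and 2266 CPM, like those with 3 or more (2067 and 2047 CPM), while marked members were at 5376 and 3978 CPM. These sums were uneven over cells, with a median of 7 UMIs per marked member (0 to 45) at 3 months and 3 (0 to 26) at 24 months. Without the 2 richest members of each library the whole arterial list stood at 2.54 and 2.63 times the Plvap-positive level. Barcodes with 1 or 2 Plvap UMIs had a median depth of 1634 UMIs against 1725 in marked members at 3 months, and of 1691 against 1280 at 24 months. Among marked members of 2000 UMIs or more (10 and 7 barcodes) the arterial list without Mgp stood at 6145 and 3499 CPM, and in shallower ones (18 and 30) at 4447 and 4250 CPM.

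**Figure D3:**
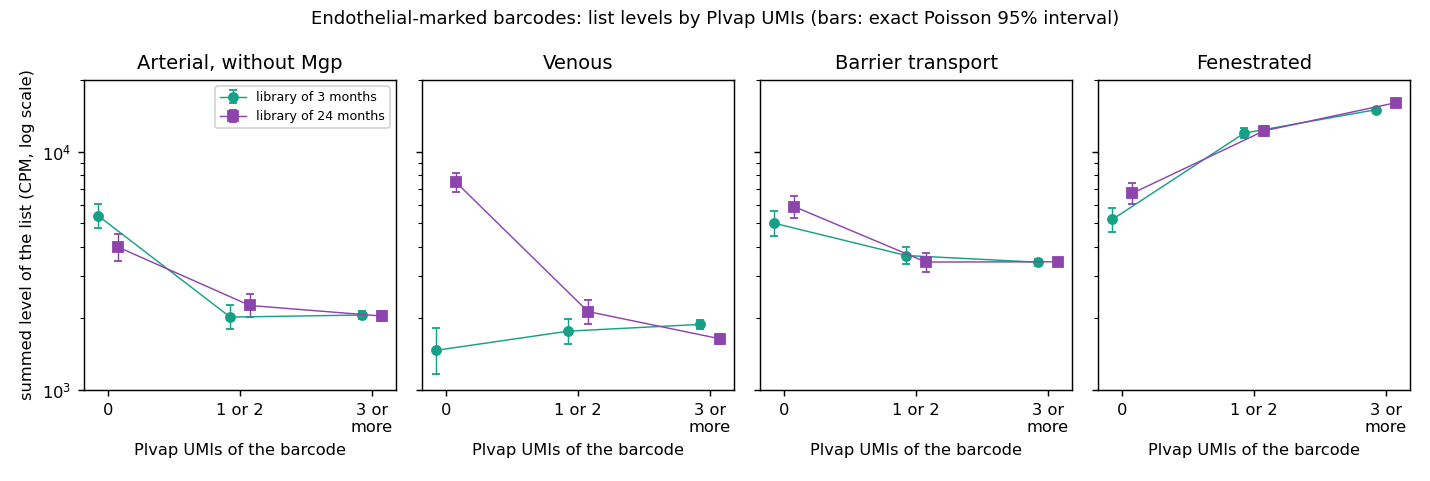
Summed level (CPM, log axis) of the arterial list without Mgp, the venous, the barrier transport and the fenestrated list in endothelial-marked barcodes with 0, with 1 or 2 and with 3 or more Plvap UMIs, by library, with exact Poisson 95% intervals. Barcodes with 1 or 2 Plvap UMIs lie near those with 3 or more in the arterial panel (2026 and 2067 CPM at 3 months), and the sum of the 0 class stands apart (5376 CPM). The sums do not show how the UMIs are spread over cells.

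Venous genes differed between the libraries. At 3 months the list was at 1471 CPM in marked members and 1873 CPM in Plvap-positive barcodes (0.785-fold, 0.624 to 0.977). At 24 months it was at 7425 against 1709 CPM (4.34-fold, 3.902 to 4.827). The direction at 3 months turned with the choice of barcodes, since over all members the ratio there was 1.99. Of 12 measured genes (of 18 listed) only Vwf was called higher, and Ptgs1, a cyclooxygenase, lower (0.300 and 0.442). Over all measured genes, 1.06% were called higher and 1.21% lower. Vwf had 7 UMIs in 2 members at 3 months (5.36-fold, 1.98 to 12.6) and 43 UMIs in 9 members at 24 months (24.9-fold, 15.3 to 40.8). The 2 members at 3 months also held 59 and 15 Mgp UMIs, and the first of them 7 Gkn3 UMIs. At 24 months 9 Vwf UMIs lay in a barcode with 37 Mgp and 4 Gkn3 UMIs, and 10 in one with 10 Ackr1 UMIs. Vwf was thus not confined to members with Ackr1 or Slc38a5.

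The venous sum at 24 months was concentrated in few cells. One barcode of 5807 UMIs held 161 of the 433 venous UMIs (37.2%), and 4 other barcodes held 64, 50, 42 and 36. The median over the 37 members was 2, and at 3 months no member held more than 16. Ackr1, the chemokine-scavenging receptor of venules, had 0 UMIs in members at 3 months and 12 UMIs in 2 members at 24 months, 206 against 11.5 CPM in Plvap-positive barcodes. Slc38a5, an amino acid transporter, had 0 and 9 UMIs, the 9 in 2 barcodes. Lcn2, the iron-binding lipocalin 2, had 0 and 39 UMIs, 27 of them in 1 barcode. Without the deepest marked member of each library the venous ratios were 0.845 and 3.03.

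Of the transporters of the blood-brain barrier, 6 of 17 measured genes (of 25 listed) were called higher in marked members and 0 lower. Of all measured genes 1.06% were called higher and 1.21% lower. The list was at 5008 against 3468 CPM at 3 months (1.44-fold, 1.28 to 1.63) and 5881 against 3453 CPM at 24 months (1.70-fold, 1.52 to 1.90), with median log2 differences of 0.46 and 0.51. The excess of the summed list at 3 months lay in 2 barcodes, which held 72 and 35 of the 286 UMIs, and without them the list was at 3481 CPM, a ratio of 1.00 (0.860 to 1.17). Without the 2 richest members at 24 months (56 and 45 of 343 UMIs) the ratio was 1.37 (1.196 to 1.558). Over all members the list was below Plvap-positive barcodes at 3 months (0.701-fold) and above them at 24 months (1.245-fold). Slc2a1, the glucose transporter GLUT1, was 4.29-fold and 11.6-fold higher, with 6 of its 14 and 17 of its 37 UMIs in 1 barcode of each library. Slco1a4, an organic anion transporter, had 11 UMIs in 5 of 28 members (10.7-fold, 4.70 to 23.1) and 17 in 7 of 37 (11.7-fold, 5.96 to 22.4).

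Slco1a4 was also present in the plexus epithelium, at 57.7 and 48.1 CPM against 193 and 292 CPM in marked members. Thinned to 900 UMIs, it was found in 7.41% and 8.57% of marked members and 5.04% and 4.15% of epithelial barcodes. The summed epithelial list was 29753 CPM in marked members and 29056 CPM in Plvap-positive barcodes at 3 months, and 26097 and 21462 CPM at 24 months. Slco1c1, which carries thyroid hormone, was 4.17-fold and 4.82-fold higher, but all 7 of its UMIs at 3 months came from 1 barcode. Abcb1a, the drug efflux pump P-glycoprotein, was 2.73-fold and 3.82-fold higher in 7 and 12 members. Bsg, the chaperone of monocarboxylate transporters, was 2.22-fold and 2.57-fold higher, with 27 of 67 and 28 of 82 UMIs in 1 barcode. Slc30a1, a zinc exporter, was 1.87-fold and 1.97-fold higher.

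Few other barrier genes were called, and some were sparse. Of 6 measured junction genes (of 10 listed) Cldn5 was called higher and none was lower, and Tjp1, the scaffold ZO-1, had ratios of 1.68 (0.977 to 2.71) and 1.34 (0.719 to 2.31). Ocln, the tight junction protein occludin, had 1 and 0 UMIs in marked members. Of 6 measured genes of the Wnt pathway that sets up the barrier (of 18 listed), 0 were called, and the list was at 1.04-fold (0.805 to 1.33) and 1.22-fold (0.954 to 1.54). Of all measured genes 1.06% were called higher and 1.21% lower, so 0 calls among 6 genes carry little information. Mfsd2a, the lipid transporter of barrier endothelium, had 2 and 1 UMIs. Spock2, a proteoglycan, was 11.8-fold and 3.79-fold higher, whereas Car4, a carbonic anhydrase of capillary walls, was at 0.465 and 0.473. Itm2a, a membrane protein abundant in brain endothelium, was not called (1.24 and 1.09).

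Genes of the fenestrated capillary state were lower along with Plvap. Of 14 measured genes (of 17 listed) 11 were called lower and 0 higher, beside 1.21% and 1.06% of all measured genes. The list was at 5201 against 14610 CPM at 3 months (0.356-fold, 0.316 to 0.399) and 6687 against 15518 CPM at 24 months (0.431-fold, 0.389 to 0.476), with median log2 differences of -1.66 and -1.25. Plpp1, a lipid phosphatase, was at 578 against 1676 CPM and 600 against 1672 CPM. Plpp3, from the same enzyme family, was at 0.324 and 0.478, Igfbp3, an IGF-binding protein, at 0.304 and 0.540, and Nrp1, the VEGF co-receptor neuropilin 1, at 0.383 and 0.546. Ednrb, the endothelin B receptor, had 6 UMIs in 4 members of each library, 105 against 758 CPM and 103 against 758 CPM. Ramp3, a receptor partner for adrenomedullin signalling, was at 0.167 and 0.244.

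Among the 12 lowest genes by the naming rule, Ednrb, Ramp3, Inhbb and Sox4 were each seen with 3 to 9 UMIs in the members of a library. Cyp1a1, a detoxifying cytochrome P450, had 2 UMIs (ratio 0.162, 0.0195 to 0.591) and 1 UMI (0.102, 0.00258 to 0.578). Enpp6, Exoc3l2, Myo6, Kctd12b, Lmcd1 and Dysf were called from 1 to 4 UMIs each, with ratios between 0.0974 and 0.312 and intervals that reached up to 0.926. Collagen IV, the network of the basement membrane, was lower as well, with Col4a1 at 0.558 and 0.396 and Col4a2 at 0.410 and 0.666. The perlecan gene Hspg2 was at 0.350 and 0.550. Klf2, a transcription factor raised by laminar flow, was 2.20-fold and 1.70-fold higher. Of 14 measured MHC class I genes 0 were called, where 1.21% of all measured genes were called lower. Their summed list was lower at 3 months (0.803-fold, 0.709 to 0.906) and at 24 months (0.789-fold, 0.710 to 0.873).

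Members with and without Cldn5 differed from each other. This division was chosen after the values were seen, so it is a description. Cldn5 was detected in 8 of 28 and 11 of 37 marked members, with a median depth of 2170 and 1664 UMIs against 1614 and 1190 UMIs in those without. The fenestrated list was lowest in members with Cldn5, at 2328 CPM at 3 months and 1231 CPM at 24 months. Members without Cldn5 had 6528 and 9978 CPM, between these and Plvap-positive barcodes (14610 and 15518 CPM). The ratio of members with to members without Cldn5 was 0.357 (0.251 to 0.496) and 0.123 (0.0802 to 0.183).

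Barrier transport genes had a higher sum on the Cldn5 side of this division, carried at 3 months by 2 cells. They were at 8481 and 9253 CPM in members with Cldn5 and at 3405 and 3848 CPM without it, beside 3468 and 3453 CPM in Plvap-positive barcodes. The ratio with to without was 2.49 (1.96 to 3.17) and 2.41 (1.93 to 3.00), and that of members without Cldn5 to Plvap-positive barcodes was 0.982 (0.820 to 1.17) and 1.11 (0.935 to 1.32). At 3 months 107 of the 153 UMIs of the 8 members with Cldn5 lay in 2 barcodes, and the other 6 were at 3724 CPM, 1.07 times the Plvap-positive level (0.785 to 1.44). At 24 months the 9 members left without the 2 richest were at 6868 CPM (1.99-fold, 1.62 to 2.42). Bsg was at 2827 CPM with Cldn5, 409.6 CPM without it and 528 CPM in Plvap-positive barcodes at 3 months, and at 2644, 659.7 and 547.5 CPM at 24 months. Pglyrp1, a peptidoglycan-binding protein, had 15 and 14 UMIs, all in members with Cldn5 and in 2 barcodes of each library. Itm2a was 5.26-fold (2.07 to 15) and 4.03-fold (1.59 to 11.5) higher with than without Cldn5.

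Single fenestrated genes differed in how far they set the Cldn5 side apart. Ednrb had 0 UMIs in members with Cldn5 in both libraries, which allows up to 166 and 137 CPM against 758 CPM in Plvap-positive barcodes of either library. Members without Cldn5 held it at 0.203 and 0.218 times the Plvap-positive level, so these 0 counts say little about a difference between the sides. Plpp1 was at 222 CPM with Cldn5 and 742 CPM without it at 3 months, and at 0 and 962 CPM at 24 months. Igfbp3 was at 499 and 922 CPM at 3 months and at 137 and 2309 CPM at 24 months. Its ratio with to without Cldn5 was 0.541 (0.229 to 1.145) and 0.0592 (0.012 to 0.179), so the interval at 3 months included 1. The arterial list, by contrast, was above Plvap-positive barcodes on both sides. It was at 11806 CPM with and 7808 CPM without Cldn5 at 3 months, and at 11714 and 5442 CPM at 24 months, beside 2619 and 2532 CPM. The 2 richest of the 8 members with Cldn5 at 3 months held 144 of their 213 arterial UMIs, and the other 6 were at 5457 CPM. At 24 months the 2 richest with Cldn5 held 104 of 257, and the rest were at 8723 CPM. Among members without Cldn5 the 2 richest held 137 of 305 and 75 of 198 arterial UMIs. The rest of those stood at 2.17 and 1.59 times the Plvap-positive level. Mgp was at 5931 and 2662 CPM at 3 months and at 6427 and 2254 CPM at 24 months.

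A few Plvap-positive barcodes also held Cldn5, 5 at 3 months and 13 at 24 months. Their fenestrated list was at 6282 and 10577 CPM and their barrier transport list at 4613 and 3954 CPM. Both values lay between those of members with Cldn5 and those of Plvap-positive barcodes as a whole.

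**Figure D4:**
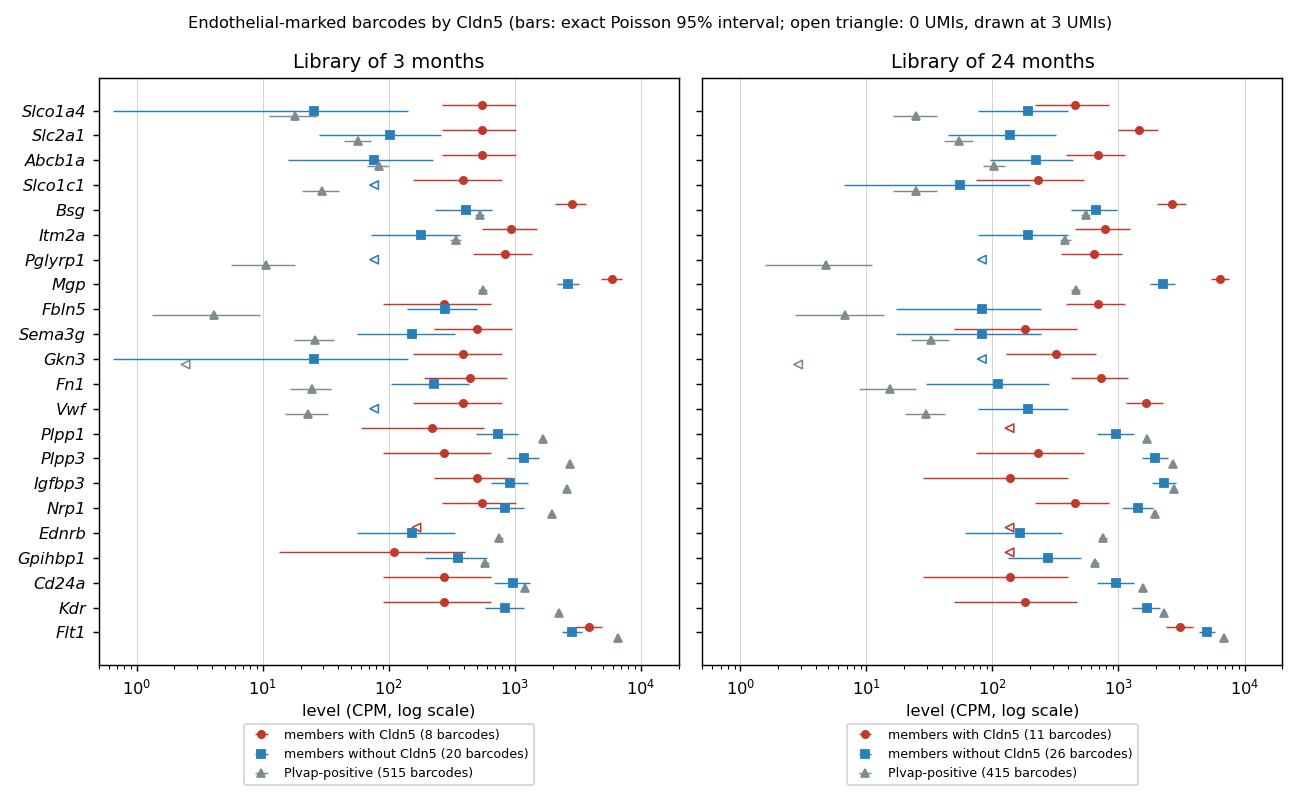
Level (CPM, log axis) of single genes in marked Plvap-negative barcodes with Cldn5, in those without it and in marked Plvap-positive barcodes. There is one panel per library, with exact Poisson 95% intervals. An open triangle marks 0 UMIs and is drawn at the level of 3 UMIs. List sums are not drawn. The barrier transport sum was higher in members with Cldn5 (8481 and 9253 CPM) than in the other classes, at 3 months through 2 barcodes. The fenestrated sum was lowest there (2328 and 1231 CPM).

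Single members with Cldn5 had different partner genes. Arterial transcripts marked a 3-month barcode of 3285 UMIs, with 5 Cldn5, 5 Vwf, 59 Mgp, 7 Gkn3, 5 Sema3g and 3 Gja4 UMIs. At 24 months a barcode of 2539 UMIs held 1 Cldn5, 9 Vwf, 37 Mgp and 4 Gkn3 UMIs, and one of 875 UMIs held 2 Cldn5, 8 Mgp, 3 Gkn3 and 3 Sema3g UMIs. These 3 had no Slc38a5 and no Ackr1.

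Venous transcripts marked other members. The 24-month barcode of 5807 UMIs held 11 Cldn5, 10 Vwf, 10 Ackr1, 5 Slc38a5, 21 Lrg1, 27 Lcn2 and 29 Vcam1 UMIs, with 4 Mgp UMIs and 0 of Gkn3 and Sema3g. It also held 17 UMIs of Slc2a1, and 6 of the fibroblast list beside 52 of the general endothelial list. A 24-month barcode of 2006 UMIs held 2 Cldn5, 6 Vwf, 2 Ackr1, 4 Slc38a5, 9 Lrg1 and 11 Lcn2 UMIs, together with 15 Mgp UMIs and 1 Bmx UMI. Venous and Mgp UMIs also met in the barcodes of 1860 UMIs (36 of the venous list and 35 Mgp) and 2531 UMIs (42 and 24). No 3-month member held Ackr1 or Slc38a5.

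Still other members had barrier transporters without Ackr1, Slc38a5 or Gkn3 UMIs. At 3 months a barcode of 3303 UMIs held 6 Cldn5, 4 Slco1a4 and 9 Itm2a UMIs and 0 of Mgp, with 72 UMIs of the barrier transport list. A barcode of 2385 UMIs held 6 Cldn5, 3 Slco1a4 and 7 Itm2a UMIs. At 24 months a barcode of 1280 UMIs held 8 Cldn5, 4 Slco1a4 and 6 Itm2a UMIs and 0 of Mgp, with 45 UMIs of the list. These barcodes were picked after their values were seen, and each is 1 cell.

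**Figure D5:**
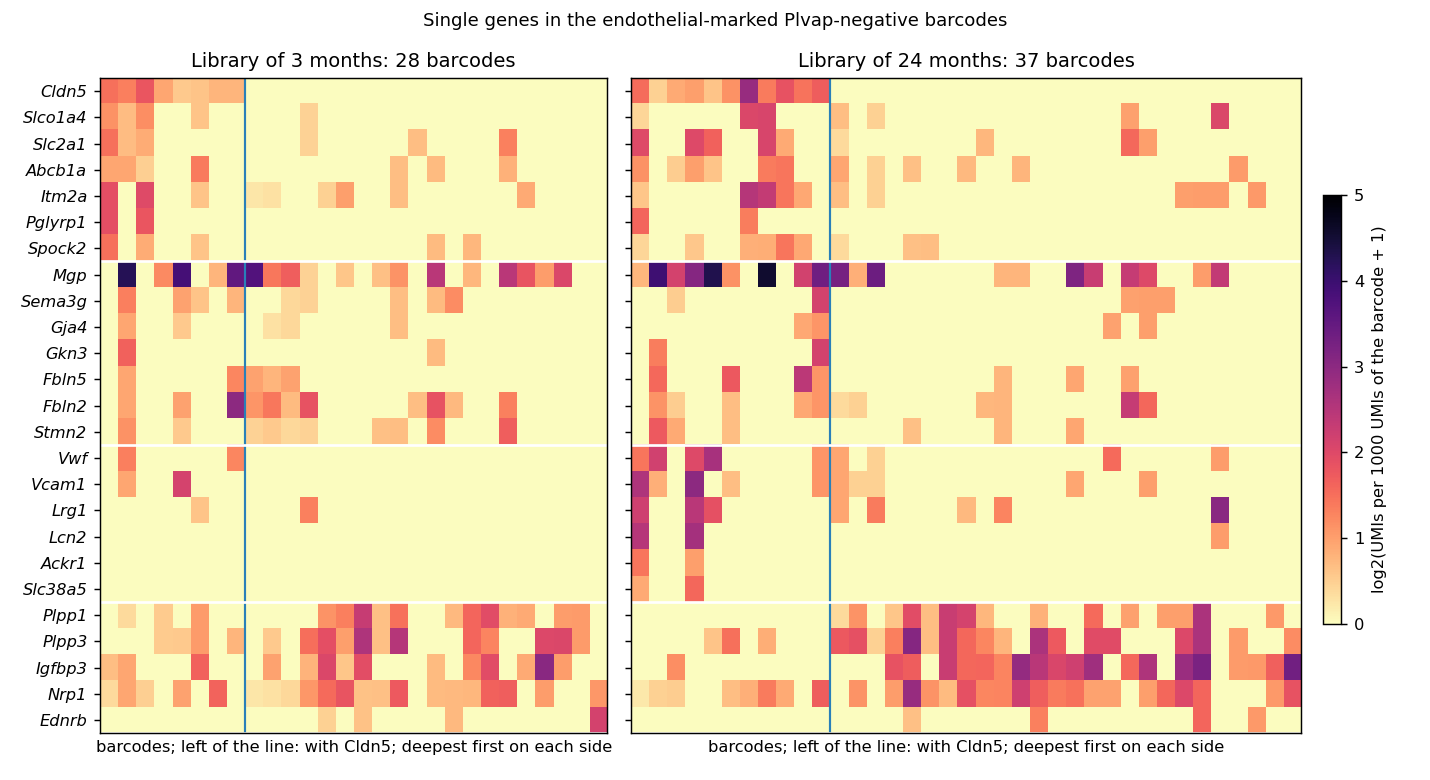
UMIs of single arterial, venous, barrier and fenestrated genes, scaled to the depth of the barcode (log2 scale), in each endothelial-marked Plvap-negative barcode. There is one column per barcode (28 at 3 months and 37 at 24 months), those with Cldn5 left of the line and the deepest first on each side. Ackr1 and Slc38a5 appear only at 24 months, in 2 barcodes each, while Gkn3 appears in 2 barcodes of each library.

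Between the ages, few genes of marked members passed the size rule. Of 339 genes with enough UMIs, 15 (4.42%) were at least 1.5-fold higher and 23 (6.78%) lower at 24 than at 3 months. The genes that were higher included Lrg1, a secreted glycoprotein of activated venules (5 UMIs and 52 UMIs, 10.2-fold, 4.09 to 32.7), Vwf (6.02-fold), Vcam1, the leukocyte adhesion molecule (5.29-fold), and Slc2a1 (2.59-fold). In Plvap-positive barcodes the same ratios were 1.32 for Lrg1, 1.30 for Vwf, 0.924 for Vcam1 and 0.955 for Slc2a1. The barcode of 5807 UMIs described above held 21 of the 52 Lrg1 and 29 of the 54 Vcam1 UMIs at 24 months. It also held 10 of 43 Vwf, 17 of 37 Slc2a1 and 161 of 433 venous-list UMIs there. The whole venous list was 5.05-fold higher (3.99 to 6.46) at 24 months in marked members and 0.913-fold in Plvap-positive barcodes, while the arterial list was at 0.860 and 0.967.

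Other age differences were spread over more cells or ran the other way. Ctla2a, a protease inhibitor, was 3.47-fold higher in marked members and 1.29-fold in Plvap-positive barcodes. Slc3a2, the heavy chain of amino acid transporters, was 2.87-fold higher, Rack1 2.02-fold, Thbd, the anticoagulant receptor thrombomodulin, 1.91-fold and Igfbp3 1.89-fold. Fbln2 was lower at 24 months (0.370), and was also lower in Plvap-positive barcodes (0.598). The immediate early genes Klf6 and Atf3 were lower in marked members (0.438 and 0.440) with ratios of 1.44 and 1.12 in Plvap-positive barcodes. Ebf1 (0.381), Serf2 (0.417), Clic1 (0.438), Crip1 (0.457) and Ccnd2 (0.490) completed the 8 lowest. Each age is 1 pool of 4 mice, so age and library cannot be told apart.

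Over all 101 members the counts by age were 116 (12%) higher and 115 (11.9%) lower of 968 genes. The share of unmarked members moved with these counts, being 28 of 56 at 3 months and 8 of 45 at 24 months. Apod was 6.09-fold higher over all members, from 1030 to 6273 CPM, and stood at 52.5 and 206 CPM in marked members. The 8 highest genes were Lrg1, Vwf, Ctla2a, Apod, Slc2a1, Igfbp3, Cldn5 and Thbd. Among the 8 lowest were F3, Atp1b2, Rbms3, Fstl1 and Maf, and also the collagen gene Col1a2 and Itga8, which marked members held at 0 or 35.0 CPM in either library.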

How the data were processed

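The values are UMI counts per gene and barcode, deposited by the authors as whole numbers without normalization, 1 library per age. Cell Ranger 4.0.0 and the build mm10 are credited to the submitters' processing notes, with the annotation and barcode calling not given in the sources used here. Gene coordinates come from GENCODE vM21, in which 20091 of 20375 symbols were found. Free RNA was not subtracted.

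Barcodes were chosen and classed by the thresholds given with the results. UMIs were summed per class and library and scaled to CPM. Ratios have exact conditional binomial 95% intervals, levels exact Poisson ones and shares exact (Clopper-Pearson) ones. Genes were compared between classes with at least 50 UMIs over the sums. With 1 library per age there is no test across samples. The size rule was tried on simulated Poisson counts of the class sums. These had no spread between cells, so the trial does not cover sums that rest on few barcodes. The endothelial-marked class, the thinning to 900 UMIs and the division by Cldn5 were chosen after values were seen, and the members and all 32 gene lists were chosen with earlier results of these data known. Named genes were the 12 highest and 12 lowest called in both libraries with 100 CPM or more in a sum, ranked by the smaller log2 ratio (8 and 8 by age), of which 2 are not reported here. Left out of them were the selection genes, predicted genes, Xist, Ttr, mitochondrial, ribosomal and haemoglobin genes, and genes under 10% of their level in a reference class (epithelial, fibroblast, macrophage or mural barcodes). Single list genes and barcodes beyond these were named after their values were seen.

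Doublets were not removed: Scrublet in scanpy 1.11.5 marked 9 barcodes in each library (0.103% and 0.0893%), so its threshold did not work, and leaving out the 642 and 840 highest scores served as an alternative. Python 3.11.15, numpy 2.4.6, scipy 1.17.1, pandas 2.3.3 and matplotlib 3.10.9 were used. Other alternatives changed the depth, marker thresholds, filters, fold and summing.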

Additional observations from a re-analysis of the deposited data

Results flagged for a closer look

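Barrier transport genes lay on opposite sides of Plvap-positive barcodes at the 2 ages when all members were used: the summed level was 0.701 times that of Plvap-positive barcodes at 3 months and 1.25 times at 24 months (1.245 before rounding). The difference between the ages was not tested. Unmarked members, which carry fibroblast transcripts, were 28 of 56 at 3 months and 8 of 45 at 24 months. In endothelial-marked barcodes the ratios were 1.44 and 1.70, but 107 of the 286 UMIs at 3 months came from 2 of 28 barcodes. Without the 2 richest members of each library they were 1.00 (0.860 to 1.17) and 1.37 (1.196 to 1.558).

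Venous genes in endothelial-marked members were at 0.785 times the Plvap-positive level at 3 months and at 4.34 times at 24 months. The difference between the ages was not tested. At 24 months 161 of 433 venous UMIs (37.2%) came from 1 barcode, and without the deepest marked member of each library the ratios were 0.845 and 3.03.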

How the results depend on the processing

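Of 192 values recomputed under other choices, 80 kept within their interval or within 1.5 times of the count reported, 97 moved and 15 reversed. The reversed values were venous and barrier transport ratios over all members. Reversed means only that the ratio fell on the other side of 1, also where its own interval included 1. Each library is 1 pool, so no library could be left out, and levels near 3 UMIs in 57104 and 58320 UMIs of marked members are at the limit of detection. No paired analysis was possible because each age has 1 library and the labels give no replicate numbers. The ratios reported over all members were 6.13 and 5.33 (arterial), 1.99 and 3.60 (venous) and 0.701 and 1.245 (barrier transport).

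Counts are given as higher and lower in members, then higher and lower at 24 months. Shares are the percent without Plvap, and values come in the order 3 and 24 months. Barcodes of 2000 UMIs or more gave a share of 6.10% at 24 months, 77 and 59 genes by age, arterial ratios of 6.47 and 6.705, and at 24 months a venous ratio of 4.70 and a barrier transport ratio of 1.03. Thinning to 1500 UMIs gave a share of 12.7% at 3 months, 90, 128, 28 and 22 genes, a venous ratio of 4.01 at 24 months and a barrier transport ratio of 0.806 at 3 months. The mean of per-barcode CPM gave 188 lower genes and ratios of 5.45 and 4.21 (arterial), 1.80 and 2.875 (venous) and 0.862 and 1.38 (barrier transport). At 3 months the arterial ratio was 6.575 with median-of-ratios scaling and 6.67 with a mitochondrial limit of 10%.

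A threshold of 12 endothelial UMIs gave shares of 4.05% and 4.785%, 44, 54, 22 and 21 genes, and arterial ratios of 3.11 and 4.18. The venous ratios with this threshold were 0.808 (reversed, with an interval of 0.628 to 1.025) and 4.16. The same threshold reversed the barrier transport ratio at 3 months (1.53). A threshold of 5 gave shares of 26.1% and 25.9%, 1198, 1127, 178 and 276 genes, and ratios of 4.96 and 6.325 (arterial), 2.17 and 2.56 (venous) and 0.577 and 0.579 (barrier transport, reversed at 24 months). Leaving out barcodes with 3 or more UMIs of another cell type's markers gave a share of 4.58% at 3 months, 45, 45, 10 and 9 genes, and ratios of 3.35 and 3.40 (arterial), 0.959 and 2.42 (venous) and 1.63 and 1.53 (barrier transport). The venous and the barrier transport ratio reversed at 3 months, the venous one with an interval that included 1 (0.750 to 1.21). A minimum of 20 UMIs per gene gave 218 and 211 genes by age, no filter 489 higher, 337 and 274 by age, and a fold of 2 gave 55 and 63 by age.

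The following alternatives were chosen after seeing the data. Each one on marked barcodes put the venous and the barrier transport ratio at 3 months on the other side of 1. The venous interval included 1 at 2000 UMIs or more (0.724 to 1.244) and without the deepest marked member (0.669 to 1.053). So did the barrier transport interval without the 2 richest members (0.860 to 1.166). Ratios are given in the order arterial, venous and barrier transport. Endothelial-marked barcodes gave a share of 5.16% at 3 months, 58, 66, 15 and 23 genes, and ratios of 3.46 and 3.08, 0.785 and 4.34, and 1.44 and 1.70. Those of 2000 UMIs or more gave shares of 3.23% and 2.95%, 39, 48, 10 and 12 genes, and ratios of 4.305 and 3.46, 0.9575 and 8.58, and 1.715 and 1.925. With Plvap-positive from 3 UMIs there were 58 and 72 genes and ratios of 3.50 and 3.16, 0.779 and 4.52, and 1.46 and 1.70. Without the deepest marked member of each library there were 51, 54, 10 and 17 genes and ratios of 3.15 and 3.35, 0.845 and 3.03, and 1.51 and 1.58. Without the 2 marked members richest in the list the ratios were 2.54 and 2.63, 0.564 and 2.41, and 1.004 and 1.37, so the barrier transport ratio at 3 months was then near 1. Over all members without the deepest of each library the arterial ratios were 6.63 and 4.805.

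The cause of these changes was not tested. The fibroblast list over all members, at 5095 and 8438 CPM, moved with them, and the alternatives on marked barcodes left most of it out.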

Other observations

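Of 22 measured interferon-induced genes, 2 were called higher in endothelial-marked members, Ifit1 (3.97-fold at 3 months and 2.34-fold at 24 months) and Ifi47 (2.57-fold and 3.22-fold). Of all measured genes, 1.06% were called higher. Cxcl10, a chemokine, was called higher as well, but its 5 and 7 UMIs came from 1 barcode of each library. The interferon list summed to 6199 against 5314 CPM and 7442 against 5859 CPM.

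Macrophage-list UMIs appeared in 4 of the marked members at 3 months: 25 of the 28 UMIs in a barcode of 2572 UMIs, which also held 20 of the general endothelial list, and 1 in each of 3 others. The macrophage list was at 490 CPM in marked members at 3 months against 62.9 CPM in Plvap-positive barcodes, and at 17.1 (1 UMI) against 100.5 CPM at 24 months. Lymphocyte markers were at 0 in the members of both libraries.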
